A study of Drosophila melanogaster with 21 samples.

Results

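The genes described here lie at the end of the Drosophila melanogaster X chromosome that adjoins the centromere. They are all genes of the deposited counts table that start at or beyond position 21000000 of the X in dm6 and have at least 10 counts in at least 3 libraries. Ribosomal protein genes and genes of mitochondrial ribosomes and respiratory complexes were to be left out by their symbols, but 0 genes of the region carried such a symbol. Of 17558 genes in the table, 149 lie in the region and 74 met the count minimum, while 75 were under it. Of the 74, 3 met it only with a library that is left out of the main values (msl-1 heterozygous replicate 2, described below). The 74 comprise 59 protein-coding genes, 5 antisense RNAs, the long non-coding RNA flam, and 9 ribosomal RNA genes or pseudogenes of the rDNA region. They are set against 1483 other X genes, 121 of which start in the 2 Mb just distal to the region, and against 8434 genes of chromosomes 2 and 3.

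Poly-A RNA had been sequenced from wing imaginal discs, the larval epithelia that form the adult wing, of male third-instar larvae reared at 25 °C. Mutants of 4 kinds were profiled, namely homozygotes of msl-2.227 (n = 4), msl-1.L60 (n = 3) and mle.9 (n = 3), and males with the X-linked double mutation roX1.SMC17A roX2∆ (n = 3). Their controls were heterozygous for msl-2.227 (n = 3), msl-1.L60 (n = 3) or mle.9 (n = 2) over the balancer CyO-GFP. The roX1 roX2 mutants have no control stock of their own in the labels and were set against the mean of the 3 heterozygous groups, which shares libraries with the other comparisons.

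Male flies have a single X, and the MSL complex, built from the proteins MSL1, MSL2, MSL3, MLE and MOF with the RNAs roX1 and roX2, binds along it and raises its transcription. The proximal end of the X passes from gene-rich euchromatin into pericentric heterochromatin, where genes are long and sparse and repeats are frequent. It also holds the piRNA cluster flamenco and the ribosomal DNA array.

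The libraries held 830905 to 4131600 counts. Replicate 2 of the msl-1 heterozygotes stood apart from the rest, with the lowest total of 830905 counts, 6.17% of counts from mitochondrial genes and a median correlation of 0.510 with its own group, and the main values below are from the 20 other libraries. roX2 averaged 2.61 CPM in msl-2 mutants, 0.456 CPM in msl-1 mutants, 2.27 CPM in mle mutants and 0 CPM in roX1 roX2 mutants, against 157 to 325 CPM in the heterozygous groups. Among the mRNAs of the disrupted genes, msl-2 averaged 54.5 ± 4.76 CPM in msl-2 mutants and 102 ± 7.99 CPM in msl-2 heterozygotes, whereas mle averaged 235 ± 12.2 CPM in mle mutants and 147 ± 0.390 CPM in mle heterozygotes, and msl-1 averaged 134 ± 18.5 CPM in msl-1 mutants and 85.7 ± 41.4 CPM in msl-1 heterozygotes (SD). roX1 averaged 1735 CPM in msl-2 mutants, 130 CPM in msl-1 mutants, 104 CPM in mle mutants and 50.5 CPM in roX1 roX2 mutants. The heterozygous groups averaged 2657 to 3706 CPM. Of 6 tested wing disc markers, 5 were called lower (rule below) in msl-1 mutants and 4 in mle mutants. In msl-2 and roX1 roX2 mutants 0 of the 6 were. Of all genes, 12.0%, 9.53%, 7.93% and 7.93% were called lower in msl-1, mle, msl-2 and roX1 roX2 mutants. Of 3 leg and haltere disc markers, 2, 1, 0 and 1 were called lower in that order. Dll was called in msl-1, mle and roX1 roX2 mutants. It averaged 125 to 148 CPM in the heterozygous wing discs, where Ubx averaged 11.8 to 26.2 CPM. Whether Dll marks leg and haltere discs here is therefore uncertain. The summed larval muscle markers reached 517 to 1236 CPM in msl-2 mutants, against 109 to 191 CPM in msl-2 heterozygotes. Most of that sum was sls, at 704 ± 322 CPM and 120 ± 48.0 CPM (SD), the only 1 of the 5 markers called higher there. The summed fat body markers ran from 11.2 to 2818 CPM in msl-2 mutants, against 9.79 to 46.8 CPM in msl-2 heterozygotes, and 1 of the 4, Lsp2, was called higher. Summed salivary gland markers stayed at or under 3.40 CPM in the mutant and 3.87 CPM in the heterozygous libraries. The part of tissue makeup in the results below was not tested, and in whole discs fewer cells of a type and less RNA per cell cannot be told apart.

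By their median, proximal X genes were lower than chromosome 2 and 3 genes in all 4 mutants, to about the same extent as the rest of the X. Differential expression was tested with edgeR's quasi-likelihood test and Benjamini-Hochberg adjustment over 10325 genes, with scaling factors from chromosomes 2 and 3, and a gene was called at an adjusted p under 0.05. In mle mutants, 24 of the 74 genes were called lower and 0 higher (by DESeq2 also 0 higher), where 9.53% of all genes were called lower and 3.97% higher. In msl-2 mutants 18 fell and 1 rose, against 7.93% and 3.02% of all genes. In msl-1 mutants 19 fell and 2 rose, against 12.0% and 10.9% of all genes. In roX1 roX2 mutants 18 fell and 1 rose, against 7.93% and 6.43% of all genes. Against the rest of the X, the members' share of lower calls lay close by: 32.4% of members and 37.5% of other X genes in mle mutants, 24.3% and 25.4% in msl-2 mutants, 25.7% and 24.5% in msl-1 mutants, and 24.3% and 27.3% in roX1 roX2 mutants. The difference between these shares was not tested.

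Those counts depended on single libraries. With all 21 libraries in the fit, 6 members were called lower in mle mutants, where 2.59% of all genes were, and 1 in msl-2 mutants, where 0.92% were. In the same fit 27 were called lower in msl-1 mutants and 5 in roX1 roX2 mutants, where 26.2% and 2.69% of all genes were. The roX1 roX2 count also depended on the control stock. Against msl-1 heterozygotes alone far fewer members were called lower, as given in the closing section. The count in mle mutants was 11 without mle heterozygous replicate 1. The count in msl-1 mutants fell to 9 without msl-1 heterozygous replicate 3, 10 without msl-1 heterozygous replicate 1 or msl-1 mutant replicate 2, and 11 without msl-1 mutant replicate 1 or 3. The labels do not say that replicates came from separate cultures or animals, so p-values measure only the spread between these samples.

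The median log2 fold change of the 74 genes, minus that of chromosome 2 and 3 genes, was -0.54 in mle mutants, -0.27 in msl-2 mutants, -0.50 in msl-1 mutants and -0.33 in roX1 roX2 mutants. The same difference for the rest of the X was -0.59 in mle mutants, -0.37 in msl-2 mutants, -0.38 in msl-1 mutants and -0.35 in roX1 roX2 mutants, and for the 121 genes of the neighbouring 2 Mb it was -0.61, -0.30, -0.39 and -0.40 in that order. Without the 9 rRNA sequences, a division made after seeing the data, the 65 remaining members stood at -0.62, -0.35, -0.46 and -0.38 in that order, or at 65.1%, 78.7%, 72.6% and 77.0% of the heterozygous level. These are descriptions with no test. Autosomal genes near the centromeres, a comparator of 135 genes, lay between -0.004 and 0.19 in the 4 mutants, above the proximal X in each.

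**Figure D1:**
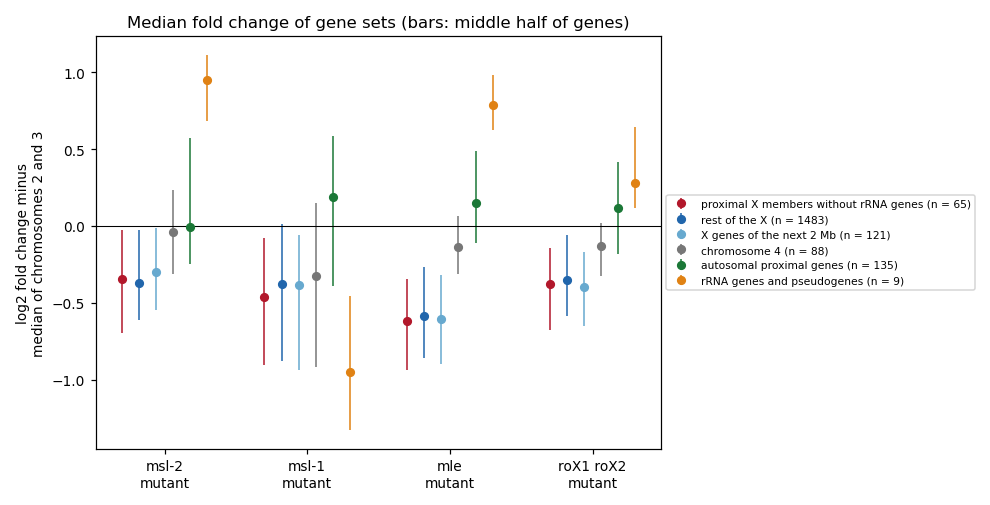
Median log2 fold change of gene sets, minus the median of chromosomes 2 and 3, in the 4 mutants, with bars for the interquartile range of the genes. The 65 proximal X members without rRNA lie beside the rest of the X in each mutant, at -0.62 and -0.59 in mle mutants, while the 9 rRNA sequences lie above 0 in msl-2, mle and roX1 roX2 mutants and at -0.95 in msl-1 mutants.

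The same picture held library by library. A score was taken for each library as the median deviation of the members' log2(CPM + 1) from each gene's mean, minus the same for chromosome 2 and 3 genes. For the 65 members without rRNA it ran from -0.05 to 0.11 in the msl-2 mutant libraries and from 0.34 to 0.40 in msl-2 heterozygotes. It ran from -0.26 to -0.17 in the mle mutant libraries and was 0.43 and 0.32 in the mle heterozygotes. It ran from -0.30 to -0.26 in the msl-1 mutant libraries and was 0.15 and 0.03 in the msl-1 heterozygotes that were kept. In each of these pairs the mutant libraries all lay below the heterozygous ones. The roX1 roX2 mutant libraries lay between -0.20 and -0.04, below all 7 heterozygous libraries that were kept, the nearest of which was 0.03. The library left out, msl-1 heterozygous replicate 2, scored -0.31 and lay below the msl-1 and roX1 roX2 mutant libraries.

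**Figure D2:**
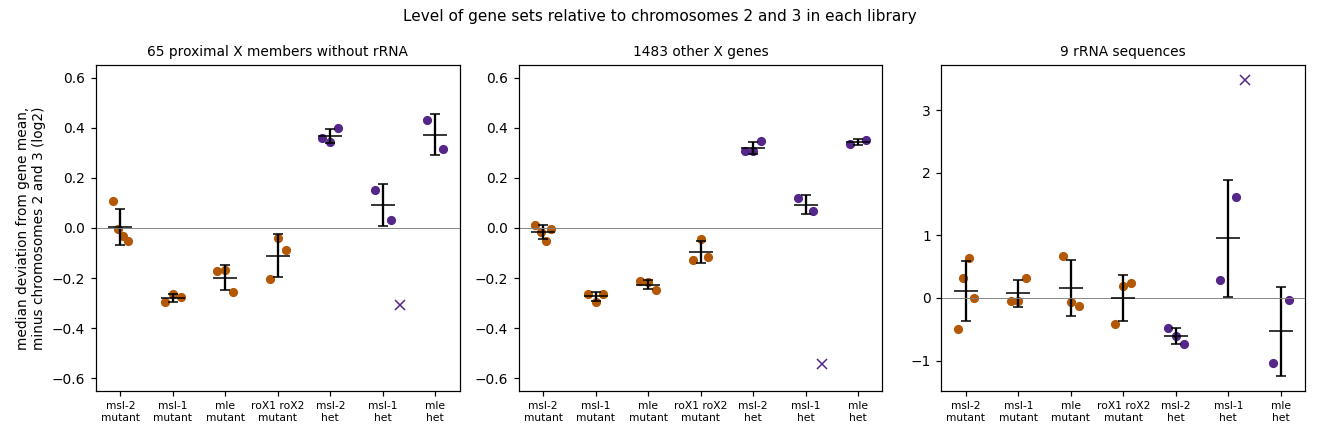
Median deviation from the gene mean, relative to chromosomes 2 and 3 (log2), for the 65 members without rRNA, the 1483 other X genes and the 9 rRNA sequences, with 1 point per library and mean ± SD bars; the cross is msl-1 heterozygous replicate 2, which is not in the means. The msl-2, msl-1 and mle mutant libraries of the first panel lie below the kept heterozygous libraries of their own stock, while the cross at -0.31 lies below the msl-1 mutants. In the third panel msl-1 heterozygous replicates 2 and 3 lie highest, at 3.49 and 1.62.

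Members with mutant and heterozygous libraries that did not overlap were counted as a second view of the same data. In msl-2 mutants, 32 members lay wholly below and 6 wholly above the heterozygotes, where 17.7% and 10.3% of all genes did. In mle mutants, 43 lay below and 5 above, where 23.2% and 14.4% of all genes did. In msl-1 mutants, 35 lay below and 4 above, where 28.1% and 23.8% of all genes did. In roX1 roX2 mutants, which are set against 7 libraries, 10 lay below and 0 above, where 5.99% and 4.70% of all genes did.

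The 35 genes of the first 0.5 Mb had median differences of -0.62 in mle, -0.31 in msl-2, -0.22 in msl-1 and -0.40 in the roX1 roX2 double mutants. Among 23 bins of 1 Mb along the X, each with at least 20 genes, the bin at 21 Mb ranked 6, 14, 22 and 4 from the lowest in that order. The 10 genes that start 1.0 to 1.5 Mb into the region had medians of -0.36, -0.12, -0.26 and -0.22, and 1, 1, 2 and 1 of them were called lower. From 2 Mb into the region on, 20 members, 9 of them rRNA sequences, had medians of -0.37, 0.15, -0.85 and -0.06. The 11 of these without rRNA, a division made after seeing the data, had medians of -0.68, -0.55, -0.56 and -0.49. The 2 genes just inside the 21-Mb limit were r-cup (X:21023390-21025888) and CG1532 (X:21026125-21028361), and those just outside were Npc1b (X:20934869-20939503) and CG44426 (X:20978286-20978868). CG1532 was lower in msl-2 mutants (log2 fold change -0.89 ± 0.14, SE) and in mle mutants (-0.79 ± 0.16), the second of which was lost without mle heterozygous replicate 1. r-cup gave 0.95 ± 0.48 and -0.62 ± 0.51 and was not called in either. Outside the limit, Npc1b gave 0.53 ± 0.47 and -0.96 ± 0.54 and CG44426 gave 1.61 ± 1.23 and -0.28 ± 0.77 in those 2 comparisons.

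**Figure D3:**
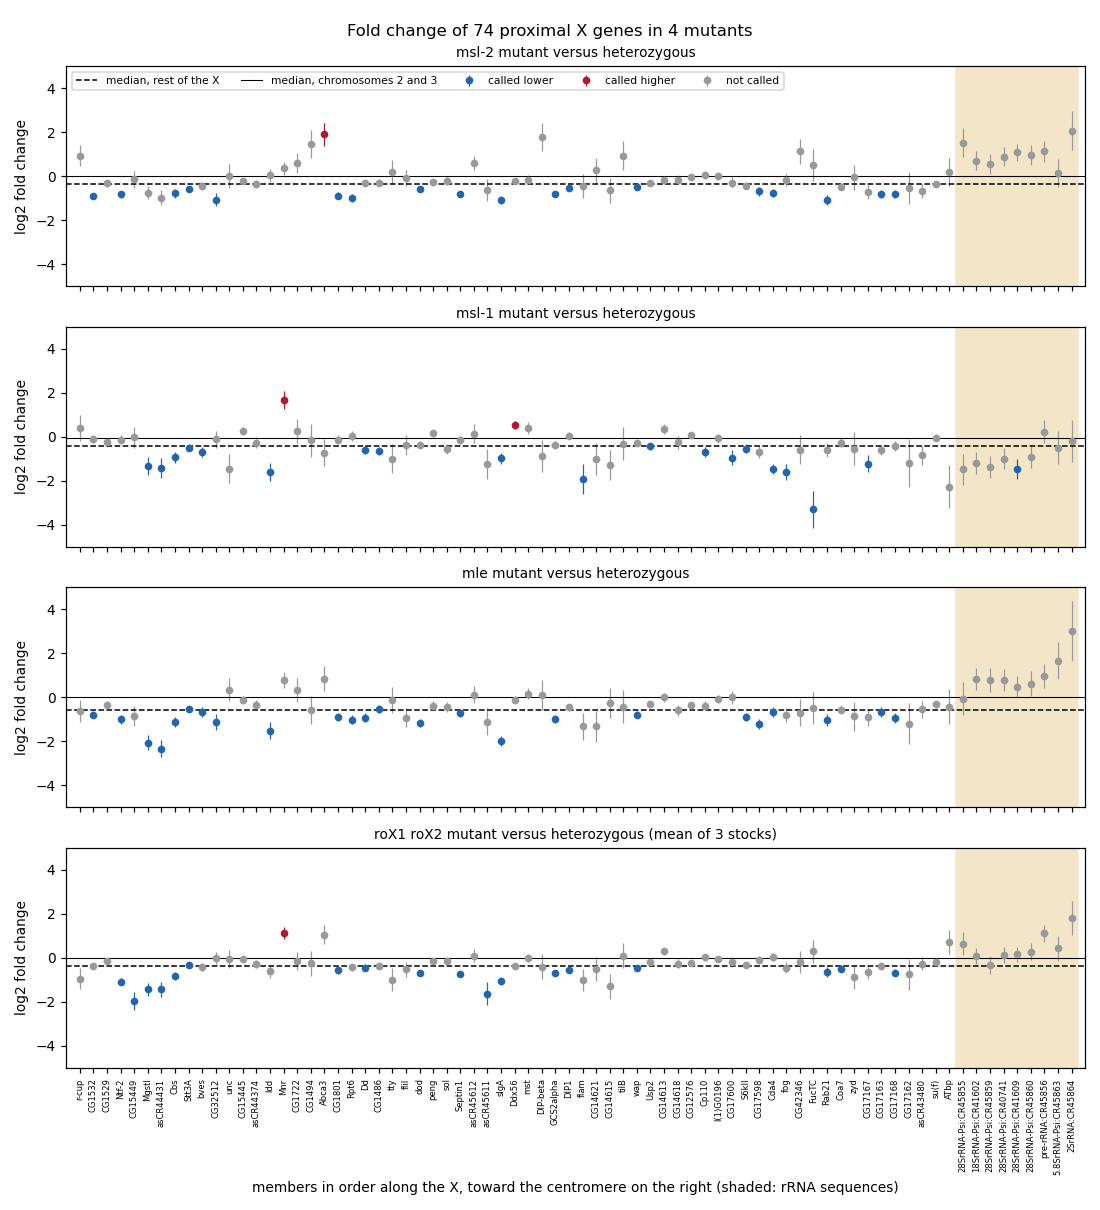
Log2 fold change ± SE of each of the 74 genes in the 4 mutants against heterozygotes, in order along the X toward the centromere, with called genes in colour, rRNA sequences shaded, and lines at the medians of the rest of the X and of chromosomes 2 and 3. Called decreases are spread over the region, with 24 in mle mutants, and the rRNA sequences lie mostly above 0 in msl-2 and mle mutants and below it in msl-1 mutants.

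Level went with the size of the decrease differently in the mutants. Of the 65 members without rRNA, 38 averaged at least 20 CPM and 27 less. In msl-2 mutants the higher group had a median of -0.48 and the lower group of -0.03, whereas in msl-1 mutants they had -0.23 and -0.83. In mle mutants both stood at about -0.62, and in roX1 roX2 mutants at -0.35 and -0.45. Other X genes split at the same level had medians of -0.46 and 0.05 in msl-2 mutants and of -0.28 and -0.66 in msl-1 mutants. The msl-1 values rest on 2 kept heterozygous libraries. Of all members, 3 met the count minimum only through the msl-1 heterozygous library left out. The part of single libraries in this split was not tested. The most abundant member per length of exon was Rpt6, which encodes an ATPase of the proteasome's regulatory particle, at 224 CPM per kb; flam, the piRNA cluster transcript, was lowest at 0.173 CPM per kb.

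Of the 74 genes, 3 were called lower in all 4 comparisons and 12 in 3 of them. In at least 1 comparison 36 were lower, and 35 were called in none. The share of all genes with such repeated calls was not computed, so these counts only describe the members. slgA (X:21374002-21385159), the mitochondrial proline dehydrogenase gene, had 71.5, 60.6, 43.8 and 61.6 CPM in msl-2 mutants, against 140, 128 and 112 CPM in msl-2 heterozygotes. It had 25.5, 42.7 and 33.5 CPM in mle mutants, against 166 and 105 CPM in mle heterozygotes. It had 39.8, 43.7 and 32.9 CPM in msl-1 mutants, against 79.3 and 74.3 CPM in the kept msl-1 heterozygotes. In each pair all mutant libraries lay below all heterozygous ones, and the roX1 roX2 mutants, at 45.3 to 60.7 CPM, lay below the 7 heterozygous libraries too. The log2 fold changes were -1.99 ± 0.22 in mle (adjusted p = 2.12e-06), -1.09 ± 0.18 in msl-2 (adjusted p = 0.000675), -0.98 ± 0.23 in msl-1 (adjusted p = 0.00378) and -1.04 ± 0.18 in roX1 roX2 mutants (adjusted p = 0.000218) by edgeR's quasi-likelihood test. These calls held without each library in turn and with all 21 libraries, although msl-1 heterozygous replicate 2, at 54.7 CPM, lay within the range of the roX1 roX2 mutants. An antisense RNA, CR45611, overlaps slgA on the other strand.

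slgA was also lower than the rest of the X. When the libraries were scaled on X genes outside the region, its log2 fold change was -1.36 in mle (adjusted p = 6.60e-05), -0.73 in msl-2 (adjusted p = 0.00898), -0.59 in msl-1 (adjusted p = 0.0493) and -0.66 in roX1 roX2 mutants (adjusted p = 0.00478) by edgeR. The difference between its mle and msl-2 effects was -0.90 ± 0.29 and did not pass (adjusted p = 0.266), so the larger value in mle mutants is not shown to differ from that in msl-2 mutants.

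Cbs (X:21045138-21049096), which encodes cystathionine beta-synthase of the transsulfuration pathway, had 75.7, 79.0, 51.0 and 62.0 CPM in msl-2 mutants, against 125, 111 and 108 CPM in msl-2 heterozygotes. It had 51.5, 72.0 and 56.2 CPM in mle mutants, against 161 and 103 CPM in mle heterozygotes, and 39.8, 62.4 and 57.6 CPM in msl-1 mutants, against 123 and 82.7 CPM in msl-1 heterozygotes. No mutant library reached a kept heterozygous library of its own stock, and msl-1 heterozygous replicate 2 had 32.6 CPM. Its log2 fold change was -1.14 ± 0.22 in mle, -0.78 ± 0.19 in msl-2, -0.94 ± 0.23 in msl-1 and -0.84 ± 0.18 in the roX1 roX2 double mutants, with adjusted p of 0.00101, 0.00886, 0.00487 and 0.00202 by edgeR. Without replicate 1 of the heterozygotes of the same stock, the msl-2, msl-1 and mle calls were each lost, and with all 21 libraries all 4 were.

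Stt3A (X:21049885-21053937), which encodes a catalytic subunit of oligosaccharyltransferase, averaged 236 ± 25.2 CPM in mle mutants, 257 ± 23.5 CPM in msl-2 mutants, 197 ± 19.3 CPM in msl-1 mutants and 258 ± 18.0 CPM in roX1 roX2 mutants. Its heterozygous means were 377 ± 4.77 CPM for msl-2, 279 ± 45.0 CPM for msl-1 and 342 ± 39.9 CPM for mle (SD). The log2 fold changes were -0.54 ± 0.15 in mle, -0.55 ± 0.13 in msl-2, -0.50 ± 0.16 in msl-1 and -0.35 ± 0.12 in the roX1 roX2 double mutants. The last of these had an adjusted p of 0.0498 by edgeR and lost its call without 16 of the libraries in turn. The msl-1 call was lost without replicate 1 of the msl-1 mutants or heterozygotes, the mle call without replicate 1 of the mle mutants or heterozygotes, and all 4 with 21 libraries. Against the rest of the X, Stt3A was called in none of the 4 comparisons (adjusted p of 0.259 to 0.884).

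**Figure D4:**
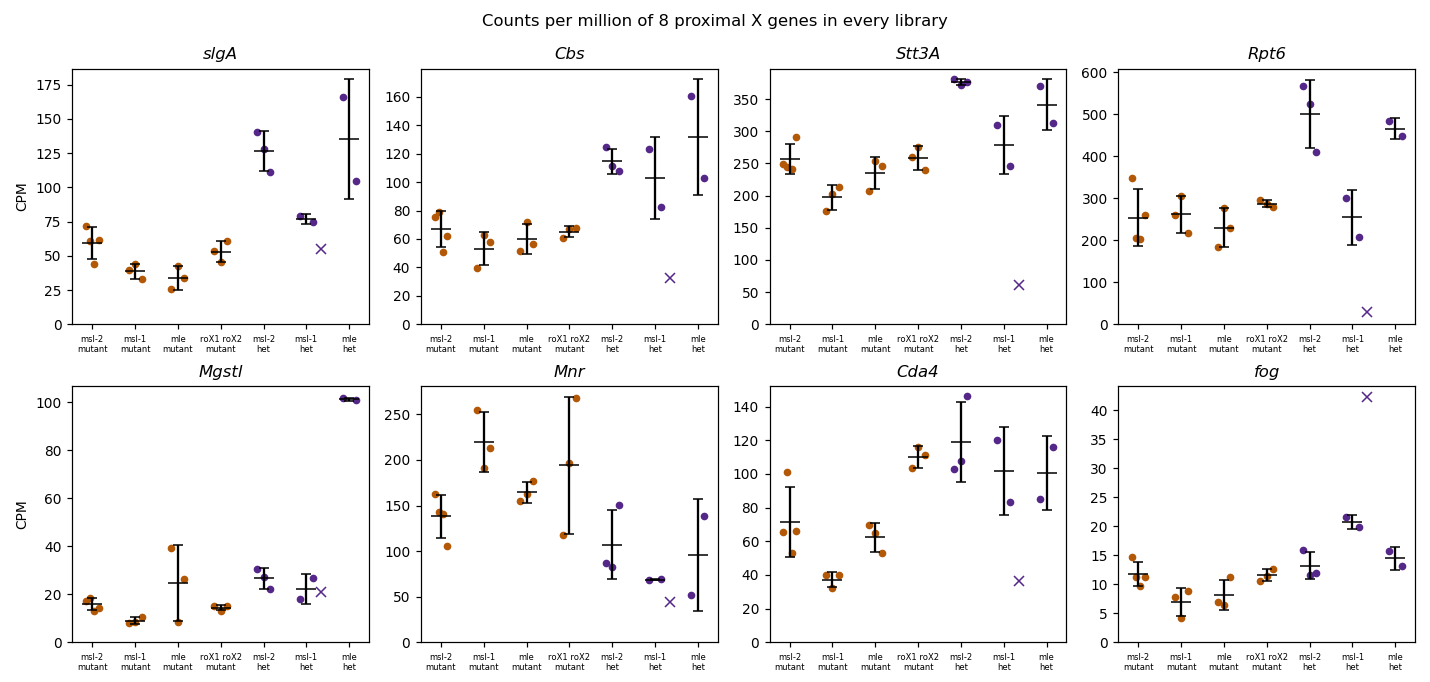
CPM of 8 proximal X genes in each library, with mean ± SD bars for each group; the cross is msl-1 heterozygous replicate 2, which is not in the means. The msl-2, msl-1 and mle mutant libraries of slgA and Cbs lie below the kept heterozygous libraries of their own stock, Mgstl averages 101 CPM in mle heterozygotes and at most 26.5 CPM in the other groups, and Mnr is highest in msl-1 mutants, at 220 CPM on average.

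GCS2alpha and Rpt6, both among the most abundant members, were each called lower in at least 2 comparisons. GCS2alpha (X:21600502-21605264), the alpha subunit of glucosidase II, had 315, 258, 242 and 352 CPM in msl-2 mutants, against 528, 503 and 496 CPM in msl-2 heterozygotes. It fell in msl-2 (-0.80 ± 0.15), mle (-0.99 ± 0.17) and roX1 roX2 mutants (-0.68 ± 0.14) and was not called in msl-1 mutants (-0.36 ± 0.18). Rpt6 (X:21316052-21317663) averaged 254 ± 68.7 CPM in msl-2 mutants and 501 ± 80.7 CPM in msl-2 heterozygotes, and 230 ± 46.2 CPM in mle mutants and 466 ± 24.8 CPM in mle heterozygotes. It was called in those 2 comparisons, whereas msl-1 mutants (261 ± 43.9 CPM) and msl-1 heterozygotes (254 ± 65.7 CPM) overlapped. CG1801 overlaps Rpt6 on the other strand.

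Other members lower in 3 comparisons included Ntf-2, Rab21, Septin1, Dd, wap, Mgstl, asRNA:CR44431, CG17168, CG1801 and Cda4. Ntf-2 (X:21035469-21041467), a nuclear transport factor for Ran, had 133, 134, 96.3 and 136 CPM in msl-2 mutants, against 201, 249 and 213 CPM in msl-2 heterozygotes, and gave -0.82 ± 0.17 in msl-2, -0.99 ± 0.20 in mle and -1.09 ± 0.16 in roX1 roX2 mutants. It gave -0.13 ± 0.20 in msl-1 mutants and was not called there. CG15449 lies opposite Ntf-2. Rab21 (X:23012140-23013409), a small GTPase gene from the proximal-most segment, averaged 14.0 ± 4.99 CPM in msl-2 mutants and 29.4 ± 3.37 CPM in msl-2 heterozygotes, with a log2 fold change of -1.06 ± 0.23. Its mle call was lost without mle heterozygous replicate 1 or mle mutant replicate 2, and its roX1 roX2 call without 14 of the 20 libraries in turn. wap (X:22451445-22455422), a WD-repeat gene, fell to 106 ± 8.40 CPM in mle mutants, against 185 ± 26.2 CPM in mle heterozygotes.

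Mgstl (X:21042125-21044107), a microsomal glutathione S-transferase-like gene, had 39.4, 8.20 and 26.4 CPM in mle mutants, against 102 and 101 CPM in mle heterozygotes, and a log2 fold change of -2.06 ± 0.33 (adjusted p = 0.000182, edgeR). Its heterozygous level depended on the stock: 22.3 ± 6.29 CPM in msl-1 heterozygotes and 26.5 ± 4.21 CPM in msl-2 heterozygotes, where the test of mle against msl-2 heterozygotes gave 1.94 ± 0.32 (adjusted p = 0.00154). It and its antisense RNA CR44431 (X:21043550-21044024) were the 2 members that differed between those stocks, where 0.765% of all genes did. Its mutant level was 15.8 ± 2.49 CPM in msl-2, 8.94 ± 1.45 CPM in msl-1 and 14.4 ± 1.15 CPM in roX1 roX2 mutants, and the gene was called lower in those of msl-1 and roX1 roX2 as in mle mutants. The roX1 roX2 value of -1.44 ± 0.29 is against a mean that includes the high mle heterozygotes, so its size depends on that stock. Each roX1 roX2 mutant library still lay below every kept heterozygous library. The msl-1 call was lost without msl-1 mutant replicate 1 or 2 or msl-1 heterozygous replicate 3. Since the strand of the counting is not given, counts of Mgstl and CR44431 cannot be told apart.

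Genes that rose were few. Mnr (X:21205310-21281171) had 255, 191 and 213 CPM in msl-1 mutants, against 68.3 and 68.8 CPM in the kept msl-1 heterozygotes, a log2 fold change of 1.68 ± 0.39 (adjusted p = 0.00598, edgeR). It rose in roX1 roX2 mutants by 1.12 ± 0.27 as well, with 118, 196 and 268 CPM, of which the first overlapped the heterozygotes. That call was lost without roX1 roX2 mutant replicate 4 and the msl-1 call without msl-1 heterozygous replicate 3. Relative to the rest of the X, Mnr was higher in roX1 roX2 (1.49), msl-1 (2.06) and mle mutants (1.41), and CG15445 and CG14613 were also higher in those 3. Abca3 (X:21292308-21306665), an ABC transporter gene, had 9.99, 13.8, 7.12 and 7.66 CPM in msl-2 mutants, against 1.72, 1.12 and 4.42 CPM in msl-2 heterozygotes, a log2 fold change of 1.92 ± 0.53 (adjusted p = 0.0210), and it was no longer called without msl-2 heterozygous replicate 1 or 2 or msl-2 mutant replicate 2.

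Tested against the rest of the X, 7 members were lower and 9 higher in msl-2 mutants, 5 and 8 in msl-1 mutants, 5 and 12 in mle mutants, and 7 and 6 in roX1 roX2 mutants. In that scaling 12.5%, 23.1%, 13.1% and 18.1% of the rest of the X itself were called in either direction in the 4 comparisons, and 21.1%, 34.9%, 38.9% and 33.3% of all genes. Of these, 4 of the 9 higher members in msl-2 mutants and 5 of the 12 in mle mutants were rRNA sequences. The counts fell to between 2 and 6 in msl-2 mutants without msl-2 heterozygous replicate 1 or 2 or msl-2 mutant replicate 2 or 3, to 5 and 7 in mle mutants without mle heterozygous replicate 1 or mle mutant replicate 1, and to 8 and 6 in msl-1 mutants without msl-1 mutant replicate 2 or msl-1 heterozygous replicate 3.

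The median difference of the 9 rRNA sequences from chromosomes 2 and 3 was 0.79 in mle, 0.95 in msl-2, -0.95 in msl-1 and 0.28 in the roX1 roX2 double mutants. Only 28SrRNA-Psi:CR41609 (X:23261772-23262666) was called, lower in msl-1 mutants: it had 9.37, 6.57 and 10.6 CPM there, against 13.1 and 35.7 CPM in the kept msl-1 heterozygotes. That call was lost without msl-1 mutant replicate 2 or msl-1 heterozygous replicate 3. By edgeR 0 of the 9 rose in msl-2 mutants, with 6 at an unadjusted p under 0.05. Summed over the 9, rRNA reached 204 to 253 CPM in msl-1 mutants and 228 and 607 CPM in the kept msl-1 heterozygotes, with 2061 CPM in the library left out, and 142 to 249 CPM in msl-2 mutants and 89.1 to 157 CPM in msl-2 heterozygotes. Replicates 2 and 3 of the msl-1 heterozygotes hold the highest rRNA sums of all libraries, and 6 of the 9 sequences were called higher in the kept msl-1 heterozygotes than in msl-2 heterozygotes. Reads from the many rDNA copies cannot be assigned to 1 of them, so these values are uncertain.

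Direct tests of the difference between mutants called 9 members for msl-1 minus msl-2, 6 lower and 3 higher, where 15.8% of all genes were called. The higher ones were Rpt6 (1.02 ± 0.29), CG1532 (0.80 ± 0.22) and Ddx56 (0.73 ± 0.24), a DEAD-box helicase gene. The lower ones included ldd (-1.64 ± 0.52), Abca3 (-2.64 ± 0.81) and fog (-1.43 ± 0.45), the gene of a secreted ligand for apical constriction. Between the heterozygous stocks, 19 members differed for msl-1 minus msl-2, 12 lower, among them CG1532 (-0.62 ± 0.17), Rpt6 (-0.98 ± 0.23), Ddx56 (-0.90 ± 0.19), GCS2alpha (-0.85 ± 0.18), DIP1, a double-stranded RNA binding protein gene (-0.72 ± 0.17), and su(f), which acts in mRNA 3′-end processing (-0.61 ± 0.17). ldd, Abca3 and fog were not among the 19. In that comparison 10.6% of all genes were called. Without msl-1 heterozygous replicate 3, edgeR called 0 members in either comparison. The count for msl-1 minus msl-2 was 3 or 5 without msl-2 heterozygous replicate 1 or 2, msl-2 mutant replicate 3 or msl-1 mutant replicate 1 or 2, and 15 without msl-2 mutant replicate 1. The count between the stocks was 7 or 8 without any 1 of the msl-2 heterozygotes.

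For mle minus msl-2, 0 members were called by edgeR or DESeq2, with 10 at an unadjusted p under 0.05, where 0.262% of all genes were called. For mle minus msl-1, edgeR called 0 members and DESeq2 2, where 0.678% of all genes were called. Between roX1 roX2 mutants and the mean of the other 3 mutants, 3 members differed, where 2.84% of all genes were called. CG15449 was lower (-1.62 ± 0.40), and CG17598 (0.76 ± 0.17) and Cda4 (1.01 ± 0.16) higher; 1 of the 3 was called without roX1 roX2 mutant replicate 4. Cda4 (X:22583634-22632710), a chitin deacetylase gene, had 103, 116 and 111 CPM in roX1 roX2 mutants, against 31.9 to 101 CPM over the other mutants, while the heterozygous libraries kept lay between 83.2 and 146 CPM. It was called lower in msl-2, msl-1 and mle mutants and gave 0.04 ± 0.17 in roX1 roX2 mutants. Its msl-2 call was lost without msl-2 heterozygous replicate 4 or msl-2 mutant replicate 3, and its mle call without 12 of the libraries in turn.

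flam (X:21631891-21790731) averaged 1.71 ± 1.29 CPM in msl-1 mutants and 6.09 ± 1.19 CPM in msl-1 heterozygotes and was called lower at an adjusted p of 0.0467 by edgeR. That call was lost without 11 of the 20 libraries in turn. fog (X:22824317-22855194) had 7.81, 4.23 and 8.81 CPM in msl-1 mutants, against 20.7 ± 1.21 CPM in the 2 kept msl-1 heterozygotes, with a log2 fold change of -1.59 ± 0.35, and was called in no other comparison. bves, a Popeye-domain gene, was called lower in msl-1 (-0.68 ± 0.24) and mle mutants (-0.67 ± 0.22), calls that were lost without 6 and 17 of the libraries in turn. unc, a ciliary protein gene, tty, a chloride channel gene, sol, a calpain-like protease gene, and fliI, a gene of the gelsolin family, were called in no comparison.

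Septin1 (X:21358286-21361688), a septin gene, had 155, 122, 106 and 163 CPM in msl-2 mutants, against 238 ± 24.3 CPM in msl-2 heterozygotes, without overlap, and gave -0.80 ± 0.15 in msl-2, -0.70 ± 0.17 in mle and -0.73 ± 0.14 in roX1 roX2 mutants. DIP1 (X:21624796-21630148) averaged 249 ± 28.2 CPM in msl-2 mutants and 354 ± 13.5 CPM in msl-2 heterozygotes, with libraries that did not overlap. It was called lower there and in roX1 roX2 mutants (-0.50 ± 0.14 and -0.56 ± 0.13), the first call being lost without 5 of the msl-2 libraries in turn and the second without roX1 roX2 mutant replicate 4. The roX1 roX2 mutant libraries of DIP1, at 194 ± 39.2 CPM, overlapped the heterozygotes, of which those of msl-1 averaged 214 ± 9.54 CPM. Those of Septin1 overlapped the heterozygotes as well. In msl-1 mutants DIP1 gave 0.06 ± 0.17.

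The gene ldd (X:21123634-21140951) had 4.68, 4.70 and 4.70 CPM in msl-1 mutants, against 13.1 and 15.4 CPM in the kept msl-1 heterozygotes, and 6.95, 3.88 and 4.10 CPM in mle mutants, against 9.53 and 18.6 CPM in mle heterozygotes. Its log2 fold change was -1.59 ± 0.41 in msl-1 and -1.51 ± 0.39 in mle mutants, calls lost without msl-1 heterozygous replicate 3 and without mle heterozygous replicate 2. In msl-2 mutants it averaged 10.9 ± 2.95 CPM, against 10.5 ± 1.90 CPM in msl-2 heterozygotes, and the groups overlapped. CG15449, which lies opposite Ntf-2, averaged 2.03 ± 0.952 CPM in roX1 roX2 mutants, with each library below every kept heterozygous library, and gave -1.96 ± 0.41 (adjusted p = 0.00194, edgeR). Ddx56 (X:21385518-21387946) was the other member higher in msl-1 mutants, with 69.5, 80.3 and 79.9 CPM there, against 53.6 and 53.0 CPM in the kept msl-1 heterozygotes. Its adjusted p was 0.0483 by edgeR, and the call was lost without 13 of the libraries in turn. The msl-1 mutant mean of 76.6 CPM lay below the means of msl-2 heterozygotes (99.5 CPM) and mle heterozygotes (80.0 CPM). The rise is thus one against the msl-1 heterozygotes only.

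su(f) (X:23096771-23101431) averaged 106 ± 5.96 CPM in msl-2 mutants and 135 ± 10.7 CPM in msl-2 heterozygotes, and 86.4 ± 11.2 CPM in mle mutants and 108 ± 7.95 CPM in mle heterozygotes. Both pairs of groups were apart without overlap, yet the log2 fold changes of -0.35 ± 0.14 and -0.31 ± 0.17 missed the threshold (adjusted p of 0.0988 and 0.257, edgeR). sol (X:21350280-21357912) averaged 48.5 ± 8.28 CPM in msl-1 mutants and 71.3 ± 20.2 CPM in msl-1 heterozygotes, with overlap.

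The 6 non-coding members other than rRNA had medians of -0.82 in mle, -0.55 in msl-2, -1.01 in msl-1 and -0.64 in the roX1 roX2 double mutants, beside -0.62, -0.32, -0.40 and -0.38 for the 59 protein-coding members. Of the 6, 1, 0, 2 and 2 were called lower in that order. asRNA:CR45611, opposite slgA, averaged 1.52 ± 0.899 CPM in roX1 roX2 mutants and between 4.64 and 5.38 CPM in the heterozygous groups, and was called lower there (-1.63 ± 0.52). By the spans of the genes, many members overlap a gene on the other strand, among them fog with CG42346 and bves with CG32512. wap, from X:22451445, and tilB, up to X:22451463, overlap only at their ends. Whether exons overlap was not examined, so how far the counts of these genes share the uncertainty of Mgstl is not known.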

How the data were processed

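Poly-A RNA of 21 wing disc libraries was analysed. The authors deposited raw read counts per FlyBase gene, with STAR 2.6.1b, featureCounts of Subread 1.6.1 and DESeq2 1.18.1 named in the submitters' processing notes (strand setting, annotation release: not given in the sources used here). Genes were matched by identifier to the Ensembl 115 annotation BDGP6.54 (17252 of 17558; the 306 others held 5.53% of counts). Genes with at least 10 counts in at least 3 of 21 libraries were fitted with edgeR 4.0.16 (R 4.3.3; robust quasi-likelihood), 1 mean per group, without msl-1 heterozygous replicate 2. TMM factors used chromosome 2 and 3 genes; a second fit used X genes outside the region. CPM values use the same factors. Alternatives included DESeq2 1.42.0. The code was tested on simulated data. Named genes followed a rule: called in all 4 comparisons, largest non-overlapping changes per comparison, most abundant, listed classical genes, smallest p between mutants, and nearest the limit; a few others were named after their values were seen. The members and lists were chosen with earlier results of these data known. No sequence was analysed here. The values of 1 member are not reported here.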

Additional observations from a re-analysis of the deposited data

Results flagged for a closer look

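Within the msl-2 mutants, 1 library lay far from the other 3 for some genes, by the gap to the nearest library as a share of the group's range. The share was 0.933 for Ntf-2, where replicate 3 was lowest at 96.3 CPM, 0.851 for Stt3A, where replicate 4 was highest at 292 CPM, and 0.834 for tty, where replicate 3 was highest at 5.25 CPM. For normally distributed values, chance gives a share of at least 0.834 in about 1 in 20 groups of this size, and larger shares less often.

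Mutants differed by direct test in the effect on 7 named genes for msl-1 minus msl-2, where 15.8% of all genes were called. They differed in the level of 3 for roX1 roX2 against the mean of the other mutants, where 2.84% were. Some of these genes were named for their small p in the same tests, so the counts partly restate that choice. Without msl-1 heterozygous replicate 3, edgeR called 0 members for msl-1 minus msl-2. The log2 differences of msl-1 minus msl-2 were 0.80 for CG1532, -1.64 for ldd, -2.64 for Abca3, 1.02 for Rpt6, 0.73 for Ddx56, -1.43 for fog and -2.57 for 28SrRNA-Psi:CR41609. Those of roX1 roX2 against the others were -1.62 for CG15449, 0.76 for CG17598 and 1.01 for Cda4. With all 21 libraries the differences for CG1532, Rpt6 and CG15449 missed the threshold, at adjusted p of 0.0564, 0.0714 and 0.116 by edgeR.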

How the results depend on the processing

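No direction of a called named gene reversed under the alternatives run. Of the 3480 values of named genes under alternatives, 3220 stayed on their side of the threshold, called or not called, 226 lost a call and 34 gained one. With all 21 libraries, lower calls were 1 (msl-2), 6 (mle) and 5 (roX1 roX2), higher calls in msl-2 0, calls against the rest of the X 1, 35, 6 and 6 (msl-2, msl-1, mle, roX1 roX2), msl-1 minus msl-2 20, stock differences 39 and 1, and the roX1 roX2 median -0.24. In this fit 26.2% of all genes were called lower in msl-1 mutants, against 12.0% in the main fit. Apart from the lower calls of this fit, shares of all genes under the alternatives are not given here. Those counts therefore describe the members only. With no filter beyond a count above 0, the medians were -0.49 (msl-2) and -0.22 (msl-1), msl-1 lower and higher calls 9 and 1, and calls against the X 8 (msl-2), 8 (msl-1) and 6 (mle). DESeq2 gave higher calls of 2 (msl-2), 1 (msl-1) and 2 (roX1 roX2) and 2 for mle minus msl-1. With only the groups compared, higher calls were 4 (msl-2), 1 (mle) and 0 (roX1 roX2), mle lower calls 15 and mle calls against the X 7. Members from 20000000 gave 8 higher in msl-1, 28 lower and 2 higher in roX1 roX2; members from 22000000 gave lower calls of 6, 9, 7 and 4, higher calls of 0 in msl-2, msl-1 and roX1 roX2, and medians of -0.12, -0.60, -0.43 and -0.19. Members without rRNA, added after seeing the data, had medians of -0.35 (msl-2) and -0.62 (mle). Other controls for roX1 roX2 gave higher calls of 2 (msl-2 heterozygotes), 0 (mle) and 4 (msl-2 and mle together), lower calls of 2 (msl-1) and medians of -0.42 (msl-2) and -0.24 (msl-1).

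Replicate numbers were not used as pairs in the main fit. Same-numbered libraries correlated at -0.248 to 0.179 over 7 pairs, and the others at -0.244 to 0.244 over 17. In the msl-1 and mle stocks the values for the 2 heterozygous libraries mirror each other. So few pairs show no pairing but cannot exclude it. With the replicate block, msl-1 lower and higher calls were 10 and 1, roX1 roX2 higher calls 0, calls against the X 10 (msl-2), 9 (mle) and 8 (roX1 roX2), msl-1 minus msl-2 5, and stock differences 7 (msl-1) and 1 (mle). Leaving out each library in turn gave lower calls of 12 to 20 (msl-2), 9 to 21 (msl-1), 11 to 25 (mle) and 12 to 19 (roX1 roX2), higher calls of 0 to 3, 0 to 2, 0 to 1 and 0 to 3, medians of -0.31 to -0.26, -0.52 to -0.43, -0.63 to -0.43 and -0.38 to -0.28, calls against the X of 2 to 20, 6 to 15, 5 to 19 and 9 to 15, 0 for mle minus msl-2, 0 to 2 for mle minus msl-1, 0 to 15 for msl-1 minus msl-2, 1 to 4 for roX1 roX2 against the others, and stock differences of 0 to 25 (msl-1) and 1 to 2 (mle). The cause of these moves was not tested. Of the 65 members without rRNA, 27 averaged under 20 CPM, and the part of depth in their calls was not tested.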
